A study of Rattus norvegicus with 22 samples.

Results

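The members of the Notch pathway described here are 10 genes compared between rat tongue carcinoma and the normal tongue beside it. They are the receptors Notch1, Notch2 and Notch3, the ligands Jag1, Jag2 and Dll1, the fringe enzyme Lfng, and the targets Hes1, Hey1 and Heyl. Each member was taken as the array's gene symbol, and where a symbol had more than 1 probe the probe with the brightest mean signal over the arrays was used. All 10 members were found among the 19167 gene symbols of the array. The tissues came from 11 male F344 rats, about 33 weeks old, that had received 4-nitroquinoline-1-oxide (4-NQO), a carcinogen that forms bulky DNA adducts, at 20 ppm in drinking water for 10 weeks. From each rat there was 1 oral squamous cell carcinoma (OSCC) of the tongue and 1 piece of phenotypically normal tongue from beside it, so that the normal group had also been exposed to 4-NQO. GEO's labels give the normal pieces no treatment and call all 22 arrays untreated, while the protocol describes both tissues as taken from the same treated rats. Both tissues were bulk pieces, in which fewer cells of a type and less RNA per cell cannot be told apart.

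Notch receptors are single-pass membrane proteins that are activated by ligands on a neighboring cell. Ligand binding exposes the receptor to cleavage by ADAM proteases and then by gamma-secretase, and the released intracellular domain joins the DNA-binding protein RBPJ to switch on HES and HEY repressors. In stratified squamous epithelium the pathway is known for driving basal cells to leave the cycle and differentiate, and in blood vessels Notch3 acts in mural cells. Fringe enzymes such as LFNG add sugars to the receptors and change which ligands they answer.

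What was measured for each member was the hybridization of labeled cRNA to a probe of 60 bases. The probes on which the results turn are given below 5′ to 3′ in lower case, because the level of a gene on the array is the level of this stretch alone. Notch1 has a pair of probes, of which the first is the brighter.

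Notch1, brighter probe: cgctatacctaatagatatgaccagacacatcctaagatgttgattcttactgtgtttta
Notch1, dimmer probe: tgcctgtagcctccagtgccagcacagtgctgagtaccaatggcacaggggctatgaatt
Notch2: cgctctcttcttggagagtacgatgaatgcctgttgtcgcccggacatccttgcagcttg
Notch3: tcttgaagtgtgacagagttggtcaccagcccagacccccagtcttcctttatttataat
Jag2: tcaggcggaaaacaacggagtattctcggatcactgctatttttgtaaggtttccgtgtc
Dll1: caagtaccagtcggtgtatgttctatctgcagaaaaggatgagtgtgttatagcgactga
Hes1: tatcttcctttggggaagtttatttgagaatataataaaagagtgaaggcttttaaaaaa

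In the rn4 build that the scanner files use, the Notch1 probes lie at chr3:4631829-4631888 and chr3:4634122-4634181 on the minus strand, 2293 bases apart. The Notch2 probe lies at chr2:192986490-192986549 on the plus strand. The Notch3 probe is at chr7:12688358-12688417, the Jag2 probe at chr6:137909747-137909806, the Dll1 probe at chr1:54240861-54240920 and the Hes1 probe at chr11:72603477-72603538, all on the minus strand. Exon and UTR annotation of this build was not used here. Between any 2 of the 11 probes of the members the longest shared run was 10 bases, and the share of G and C ran from 26.7% in the Hes1 probe to 55.0% in the Notch2, Hey1 and dimmer Notch1 probes.

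The promoters of the members were also read for the core letters of binding sites of RBPJ near the gene start. The letters TGGGAA, the core of the RBPJ site, were searched on both strands (TTCCCA on the other) in RefSeq windows of 300 bases, from 250 before to 50 after the gene start, in build GRCr8. Of 33469 windows, 25.7% held the letters at least once and 3.85% at least 2 times. Of the 9 members with a window (Hey1 had none in the table), Hes1, Dll1 and Lfng held them 2 times each and Notch3 1 time. The 250 bases before the start of these 3 genes are shown with the matches in capitals.

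Hes1, chr11:84213046-84213295, minus strand: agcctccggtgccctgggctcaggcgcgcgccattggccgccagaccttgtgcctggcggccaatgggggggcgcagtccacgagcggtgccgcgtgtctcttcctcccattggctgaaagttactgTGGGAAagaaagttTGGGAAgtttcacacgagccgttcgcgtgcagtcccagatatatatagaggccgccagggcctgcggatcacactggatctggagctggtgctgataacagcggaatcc
Dll1, chr1:64993275-64993524, minus strand: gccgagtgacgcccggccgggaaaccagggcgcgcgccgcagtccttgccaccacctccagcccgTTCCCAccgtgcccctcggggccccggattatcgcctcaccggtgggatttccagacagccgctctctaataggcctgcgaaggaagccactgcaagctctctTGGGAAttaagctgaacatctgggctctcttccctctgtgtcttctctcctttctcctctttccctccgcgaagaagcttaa
Lfng, chr12:19152919-19153168, minus strand: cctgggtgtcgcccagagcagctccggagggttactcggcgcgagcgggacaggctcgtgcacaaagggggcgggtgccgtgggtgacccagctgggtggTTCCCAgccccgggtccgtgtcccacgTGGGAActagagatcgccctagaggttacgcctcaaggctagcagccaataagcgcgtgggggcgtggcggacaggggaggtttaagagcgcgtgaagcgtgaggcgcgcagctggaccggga

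In Hes1 the matches begin 123 and 109 bases before the gene start, on the same strand and close together. In Dll1 they begin 185 and 82 bases before it and in Lfng 150 and 123 bases before it, in both genes 1 on each strand. These matches are a description of the letters, and binding was not measured here.

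Levels below are log2 signals relative to the 75th percentile of the array, so that 0 is the 75th percentile and -1 is a signal of 2-fold less. A change is the OSCC level minus the normal level, and it was called when the adjusted p-value of limma (Benjamini-Hochberg over 30367 probes) was below 0.05 and the change was at least 2-fold. The 75th percentile itself ranged from 236.8 to 654.9 intensity units in the normal arrays and from 338.7 to 1414 in the OSCC arrays. The share of probes well above background was 48.4% to 56.1% and 52.3% to 65.5%, respectively. That mark is set on each array before scaling, so that counts of marked arrays do not by themselves compare scaled levels between the tissues. On this scale the median change of all probes was -0.24. It was -0.08 over the 9550 genes well above background on every array and -0.55 over the 4622 genes that were so on no array. The normal arrays were all scanned on 1 day and 9 of the 11 OSCC arrays on another, and every slide held 1 tissue only. For 9 pairs, therefore, scan day and tissue cannot be told apart, and animals 4 and 9 are the pairs scanned within 1 day. A fit with rat and scan day as terms takes the tissue change from animals 4 and 9 alone.

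Of the 10 members 1, Notch2, was called higher in OSCC and 0 were called lower, against 7.48% of all genes called higher and 7.24% called lower. Together 14.7% of genes were called either way. In all 5 of 10 members passed an adjusted p of 0.05 at any fold, against 45.0% of all genes. Besides Notch2 these were Notch3, Jag2 and Dll1, each lower by less than 2-fold, and Hes1, whose signal was below background on all arrays and gives no level. At an unadjusted p below 0.05 in limma the same 3 were lower, Hes1 left aside, and a paired t-test with the same adjustment also called 0 members lower. The median change of the members was -0.21, beside -0.21 for all genes with 1 probe each. Notch1, Notch3, Jag1, Jag2, Dll1 and Hey1, 6 of the 10, were well above background on all 22 arrays, and no probe was saturated.

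**Figure D1:**
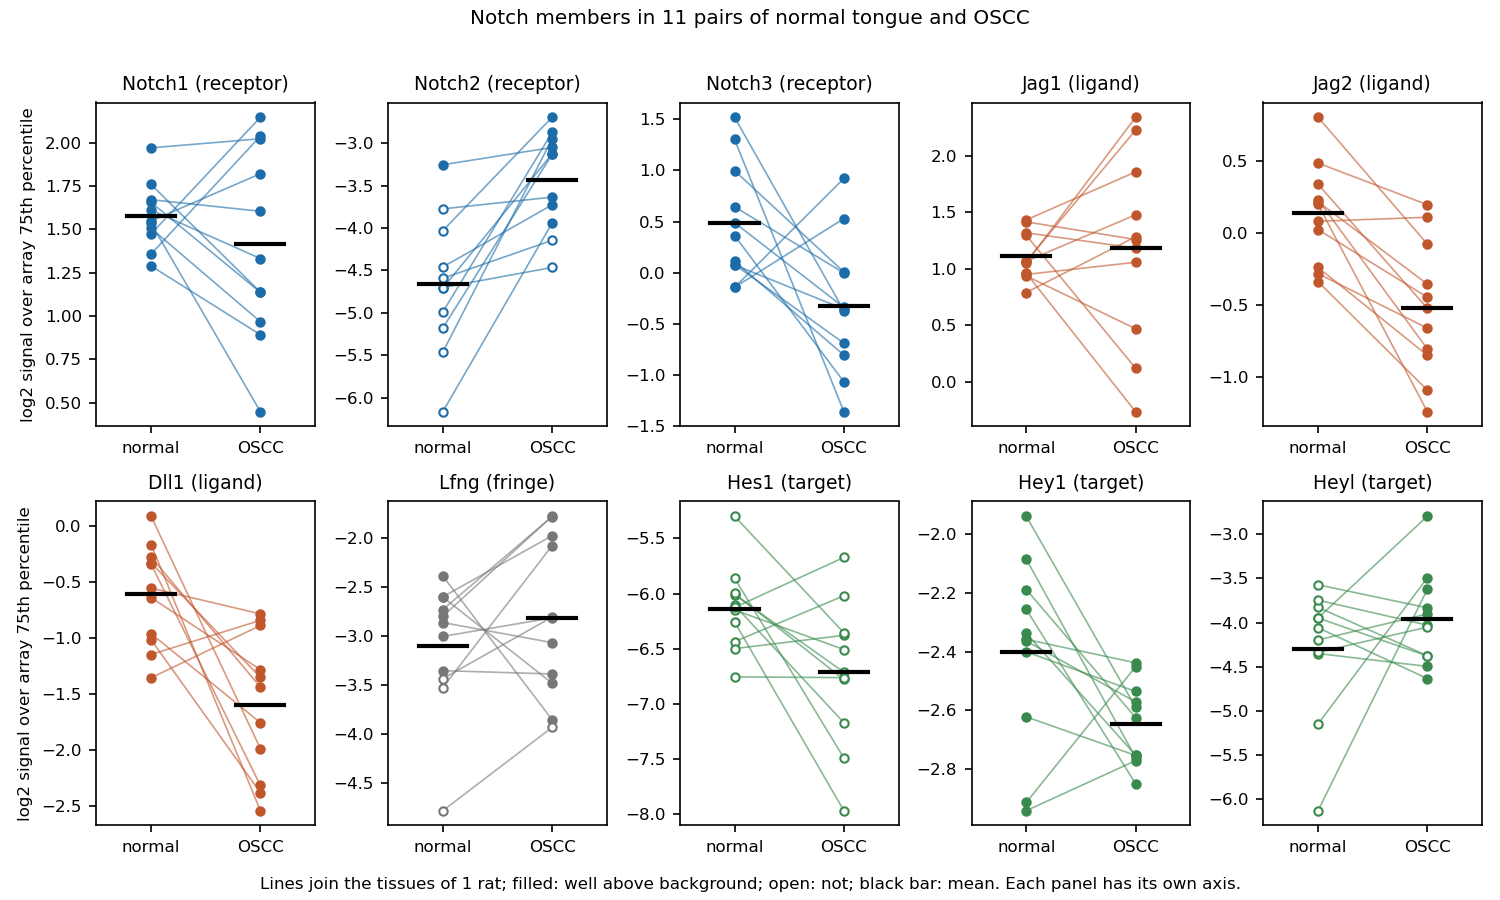
Log2 signal over the array's 75th percentile of the 10 members in normal tongue and OSCC. Lines join the tissues of 1 rat (11 rats), filled points were well above background, open points were not, and black bars are means. Notch2 rises along all 11 lines from mostly open to mostly filled points, Jag2 falls along 10, and all Hes1 points are open.

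Of the 3 receptors, Notch2 was called higher, Notch3 was lower by less than 2-fold and Notch1 passed no threshold. Notch1, the main receptor of squamous epithelium, was at 1.29 in the lowest normal array, 1.55 in the median and 1.97 in the highest. In OSCC it was at 0.45, 1.33 and 2.15. The OSCC arrays thus lay on both sides of the normal ones, 5 below the lowest and 3 above the highest. The change was -0.17 (SE 0.17, adjusted p = 0.42), with a 95% interval of -0.53 to 0.20, and it was negative in 7 of 11 pairs. Animal 24 had the lowest difference, -1.09, and animal 26 the highest, 0.68.

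The dimmer Notch1 probe was also well above background on all arrays. It ranged from -3.07 to -1.50 in normal tissue, with a median of -2.18, and from -4.28 to -1.49 in OSCC, with a median of -2.85. Its change was -0.44 (SE 0.27, adjusted p = 0.19), again negative in 7 of 11 pairs. The probes differed most in animals 4 and 9, where the dimmer probe changed by -2.54 and -1.56 and the brighter one by -0.28 and -0.52.

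Notch2, a receptor with broad expression in epithelium, immune and stromal cells, was dim in normal tongue, where 1 of 11 arrays was well above background. Its normal levels were -6.16 at the lowest, -4.70 at the median and -3.26 at the highest. In OSCC 9 of 11 arrays were well above background, with levels of -4.47, -3.13 and -2.70. The groups overlapped, and 6 OSCC arrays were above the highest normal array. The change was 1.23 (SE 0.26, adjusted p = 0.0032), or 2.35-fold, and it was positive in 11 of 11 pairs, from 0.14 in animal 4 to 2.51 in animal 13. The fold rests on a near-background signal in 10 of the 11 normal arrays. Genes below background on every array, a set that does not include Notch2, had a median change of -0.55. The part of background in the Notch2 change was not tested. The call was lost with normexp background correction, where the change was 0.34 (adjusted p = 0.70). That setting adds a constant to every signal, which makes the folds of dim probes smaller. The call was also lost with scan day as a term, where the change was 0.86 (adjusted p = 0.32). That fit takes the change from animals 4 and 9 alone, and it called 3 probes of the whole array. In these animals the differences were 0.14 and 1.58. In the 9 pairs scanned on different days the change was 1.32 (adjusted p = 0.011).

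Notch3, the receptor of vascular mural cells that is also expressed in some epithelia, went from a normal range of -0.14 to 1.52, with a median of 0.36, to an OSCC range of -1.36 to 0.92, with a median of -0.36. In OSCC 7 of 11 arrays were below the lowest normal array. The change was -0.80 (SE 0.29, adjusted p = 0.042), 1.74-fold lower, and negative in 9 of 11 pairs. Animals 21 and 22 were positive, at 0.67 and 1.07, and animal 4 was lowest at -2.66. The adjusted p did not withstand the loss of most single pairs: it was 0.052 to 0.086 without any 1 of the other 9 pairs, and 0.019 and 0.012 without animal 21 or 22. In the 9 pairs scanned on different days the change was -0.57 (adjusted p = 0.16). The pairs scanned within 1 day gave -2.66 and -0.99. With scan day as a term, which rests on these pairs, the change was -1.83 (adjusted p = 0.085). Without animals 21, 22 and 24, which the study names as variable, it was -1.21 (adjusted p = 0.0029) and was called.

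**Figure D2:**
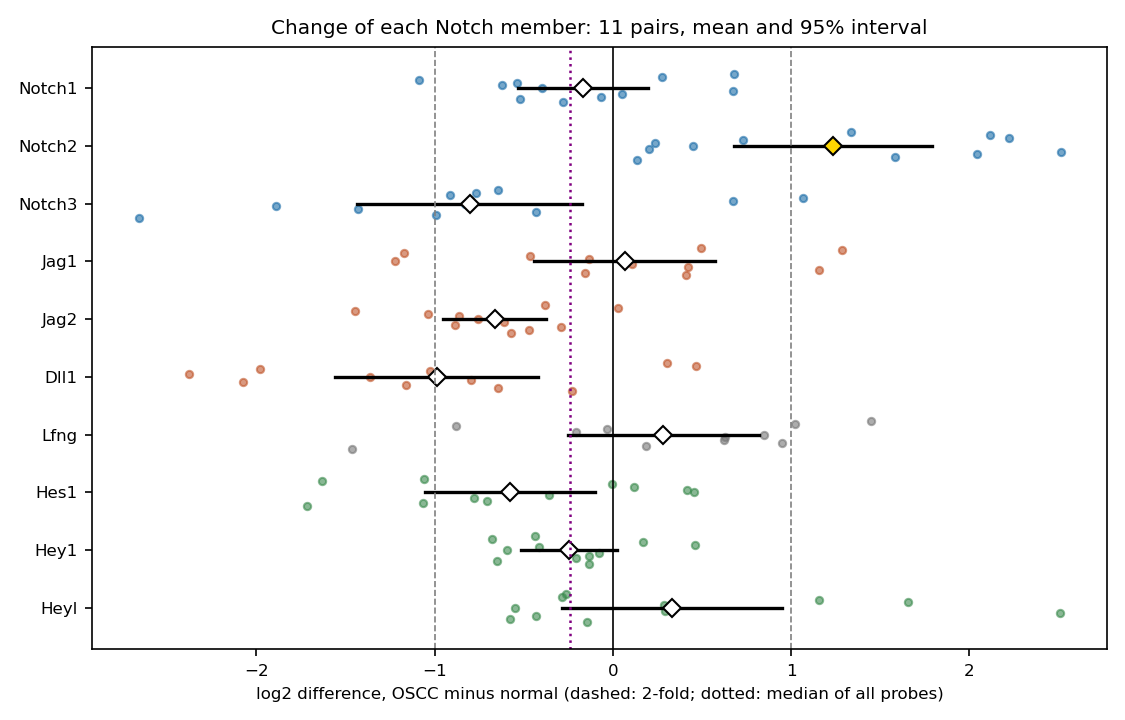
Log2 difference of OSCC minus normal for each member. Points are the 11 rats, diamonds the mean change with its 95% interval from limma (gold where called), dashed lines mark 2-fold and the dotted line the median of all probes, -0.24. The Notch2 diamond is the 1 filled in gold, at 1.23, Dll1 touches the 2-fold line at -0.99, and the Hes1 points come from signals that were not well above background.

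Of the ligands, Jag2 and Dll1 passed an adjusted p of 0.05 and were lower in OSCC, and Jag1 did not pass. Jag1, a ligand made by basal epithelium and vessel walls, ranged from 0.79 to 1.43 in normal tissue, with a median of 1.07, and from -0.26 to 2.34 in OSCC, with a median of 1.26. Its change was 0.07 (SE 0.23, adjusted p = 0.83), with a 95% interval of -0.44 to 0.57. The spread over rats was wider in OSCC (SD 0.82) than in normal tissue (SD 0.21). In OSCC 4 arrays were above the highest normal one and 3 below the lowest. The highest differences were 1.29 in animal 25 and 1.16 in animal 11. The lowest were -1.22 in animal 17 and -1.17 in animal 24.

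Jag2, a ligand of basal keratinocytes, ranged from -0.34 to 0.80 in normal tissue, with a median of 0.20, and from -1.24 to 0.20 in OSCC, with a median of -0.53. In OSCC 8 of 11 arrays were below the lowest normal array. The change was -0.66 (SE 0.13, adjusted p = 0.0027), 1.58-fold lower, with a 95% interval of -0.95 to -0.37. It was negative in 10 of 11 pairs and 0.03 in animal 25. Leaving out any 1 pair kept it between -0.73 and -0.58, with adjusted p between 0.0025 and 0.0079. The pairs scanned within 1 day gave -0.57 and -0.47 and the other 9 pairs -0.69 (adjusted p = 0.013). With scan day as a term, which rests on the pairs scanned within 1 day, it was -0.52 (adjusted p = 0.25). In that fit 3 probes of the whole array were called.

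Dll1, a delta ligand that in skin is known from basal cells, ranged from -1.36 to 0.09 in normal tissue, with a median of -0.56, and from -2.54 to -0.79 in OSCC, with a median of -1.44. In OSCC 6 of 11 arrays were below the lowest normal array. The change was -0.99 (SE 0.26, adjusted p = 0.012), 1.98-fold lower, and so just short of the 2-fold line. It was negative in 9 of 11 pairs, down to -2.37 in animal 21, and positive in animals 25 and 26, at 0.47 and 0.31. Because it lay beside the line, Dll1 was called in 8 of the 25 other settings tried, among them the loss of animal 4, 9, 16, 25 or 26, quantile normalization and array median scaling. In the 9 pairs scanned on different days it was -1.11 (adjusted p = 0.026). The pairs scanned within 1 day gave -0.23 and -0.64. The fit with scan day as a term, which rests on these pairs, gave -0.44 (adjusted p = 0.63).

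**Figure D3:**
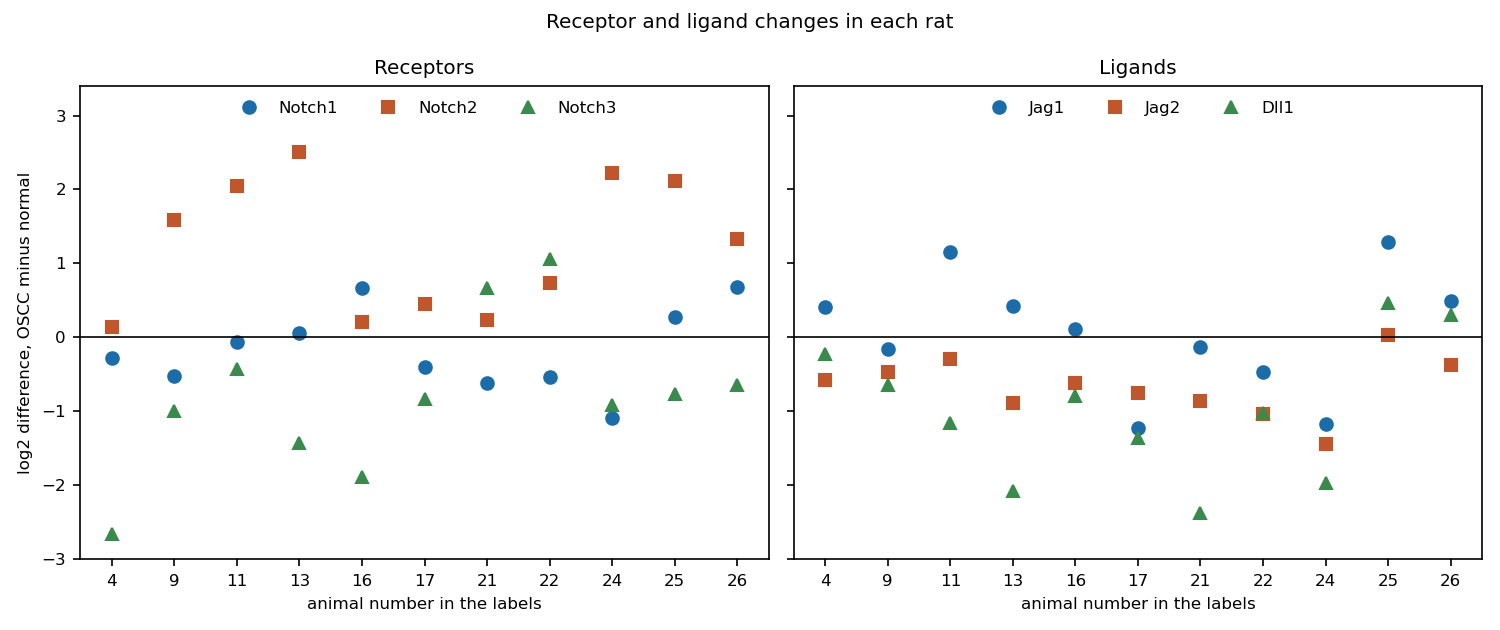
Log2 difference of OSCC minus normal in each of the 11 rats for the 3 receptors (left) and the 3 ligands (right). Notch2 lies above Notch1 in 10 of 11 rats, Jag1 lies above Dll1 in all 11, and Notch3 is above 0 in animals 21 and 22 only.

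Whether members of a kind changed by different amounts was tested within rats, with an exact two-sided permutation test that turns the sign of the difference of changes over all 2048 sign patterns, adjusted over 9 comparisons. Notch2 changed by 1.40 more than Notch1 (SE 0.32, n = 11, larger in 10 of 11 pairs, adjusted exact p = 0.0088). Notch2 also changed by 2.04 more than Notch3 (SE 0.41, n = 11, larger in 9 of 11 pairs, adjusted exact p = 0.0088). Notch1 and Notch3 differed by 0.64 (SE 0.40, n = 11, adjusted exact p = 0.17). Without animals 21, 22 and 24 they differed by 1.26, with Notch1 above Notch3 in 8 of 8 pairs (adjusted exact p = 0.023). Jag1 changed by 0.73 more than Jag2 and by 1.05 more than Dll1 (SE 0.17 and 0.26, n = 11, in 10 and 11 of 11 pairs, adjusted exact p = 0.0088 for both). Jag2 and Dll1 differed by 0.33 (SE 0.21, n = 11, adjusted exact p = 0.17). A scaling factor of an array cancels in these differences. With normexp background correction none of the 9 passed (adjusted exact p from 0.079 to 0.77), while 5 had an unadjusted exact p below 0.05, 1 of them with the Hes1 signal. Notch2 against Notch1 was not among the 5: it differed by 0.50, larger in 6 of 11 pairs (unadjusted exact p = 0.29). Both comparisons with Notch2 use a normal signal that was well above background on 1 of 11 arrays.

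Lfng, the lunatic fringe glycosyltransferase, had a signal well above background in 8 normal and 10 OSCC samples. It ranged from -4.78 to -2.39 in normal tissue, with a median of -2.87, and from -3.93 to -1.78 in OSCC, with a median of -2.82. The change was 0.28 (SE 0.25, adjusted p = 0.35), positive in 7 of 11 pairs, with differences from -1.46 in animal 4 to 1.45 in animal 26. Of the OSCC arrays 4 exceeded every normal array and none was below all of them.

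Of the target genes, none was called. Hes1, the transcriptional repressor most often used as a Notch target, stayed below that mark on all 22 arrays, so that no fold is given. Its signals were -6.76 to -5.30 in normal tissue, with a median of -6.13, and -7.97 to -5.67 in OSCC, with a median of -6.71. The difference in signal, -0.58 (adjusted p = 0.049), was close to the -0.55 that genes below background on every array showed, and with quantile normalization it was 0.04 (adjusted p = 0.61). These arrays therefore gave no level of Hes1 in either tissue.

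Hey1, a repressor of the hairy and enhancer of split family, was well above background on all arrays. It ranged from -2.94 to -1.94 in normal tissue, with a median of -2.36, and from -2.85 to -2.44 in OSCC, with a median of -2.63. All OSCC arrays lay inside the normal range. The change was -0.25 (SE 0.12, adjusted p = 0.12), close to the -0.24 of all probes, although it was negative in 9 of 11 pairs. It passed an adjusted p of 0.05 in 4 of 24 other settings, among them quantile normalization (-0.41, adjusted p = 0.016), array median scaling (-0.45, adjusted p = 0.017) and the fit without the pair of animal 22 (-0.32, adjusted p = 0.044). None of these reached 2-fold.

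Heyl, the target gene linked to mural cells, had a signal well above background in 1 normal and 9 OSCC samples. The mark was met at -4.64 in the OSCC of animal 9 and not at -3.57 in the normal tissue of animal 26. Its levels ranged from -6.13 to -3.57 in normal tissue, with a median of -4.06, and from -4.64 to -2.80 in OSCC, with a median of -4.03. The change was 0.33 (SE 0.28, adjusted p = 0.34), and it rested on few rats: it was 2.51 in animal 13, 1.66 in animal 22 and 1.15 in animal 24, while 6 of 11 pairs were negative. In the same sign test Heyl changed by 0.58 more than Hey1 (SE 0.24, n = 11, in 9 of 11 pairs, adjusted exact p = 0.023). Without animals 21, 22 and 24 this difference was 0.43 (adjusted exact p = 0.12). The change of Heyl also exceeded that of the Hes1 signal (adjusted exact p = 0.025, n = 11), which is no level and was not read further, and Hes1 and Hey1 differed by 0.33 (adjusted exact p = 0.17, n = 11).

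Whether rats with a larger change in a receptor or ligand had a larger change in a target was examined over the 11 pairs for 18 relations (6 receptors and ligands with 3 targets). None passed adjustment over the 18 by permutation. Of the 18, 6 use the Hes1 signal, which is no level, and they are not read further. Of the 12 with Hey1 or Heyl, 9 Pearson correlations were negative and 2 had an unadjusted p below 0.05. Jag2 and Hey1 gave r = -0.67 and rho = -0.68 (permutation p = 0.025 for both, adjusted p = 0.11 and 0.14), and r = -0.48 without animals 24 and 25, the farthest from the median of Jag2. Jag2 and Heyl gave r = -0.65 and rho = -0.72 (permutation p = 0.032 and 0.016, adjusted p = 0.11 and 0.14), and r = -0.72 without the same animals. Notch1, Notch2 and Notch3 had correlations with Hey1 of -0.28, -0.05 and 0.17 (rho = -0.28, -0.15 and -0.08, permutation p = 0.41, 0.88 and 0.63 for r).

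The other genes of the pathway were described from a list of 54, of which 48 were on the array, 3 of them found through their accession. Of these 6 were called higher and 0 lower, or 12.5% of 48, beside the 14.7% of all genes. At an adjusted p below 0.05 in limma at any fold 15 of the 48 were higher and 8 lower, beside 45.0% of all genes either way. At an unadjusted p below 0.05 in limma 18 were higher and 8 lower, with no share of all genes to set beside these counts. The paired t-test called 0 lower as well. The median change of the list was 0.04. The 6 called genes were all dim, each below the background mark on at least 1 array. Of the 29 list genes above it on all arrays, 0 were called, beside 14.2% of all genes with such signal. At an unadjusted p below 0.05 in limma 6 of the 29 were higher and 6 lower, again with no share of all genes beside them. The paired t-test also called none of the 29.

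Among other ligands, Dll4, the delta ligand of endothelial tip cells, had a signal well above background in 4 normal and 10 OSCC samples. It ranged from -5.94 to -3.29 in normal tissue and from -4.27 to -2.52 in OSCC, overlapping, and changed by 1.12 (SE 0.24, adjusted p = 0.0034). It was not called with quantile normalization or array median scaling, and its other probe stayed below the background mark on all arrays. Dner, a membrane protein described as a non-canonical Notch ligand in the nervous system, changed by 1.57 (SE 0.50, adjusted p = 0.027) with 2 normal and 8 OSCC arrays above background. Dner was not called when the pair of animal 4, 9, 11, 13, 16 or 25 was left out, or with quantile normalization. It was also not called in the 9 pairs scanned on different days or with the filter on dim probes. Notch4, the endothelial receptor, was well above background throughout and changed by -0.05 (SE 0.12, adjusted p = 0.73).

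Adam10, the protease that makes the first ligand-dependent cut in Notch receptors, was below the background mark on all 11 normal arrays and above it on all 11 OSCC arrays. Its signals were -4.88 to -3.75 in normal tissue and -3.71 to -2.01 in OSCC, without overlap. Against the lowest signal well above background on each normal array its level was at least 2.20-fold higher in the tumors, a limit that was not tested. The signals themselves were higher in OSCC in 11 of 11 pairs (limma, adjusted p = 0.00015), with normal signals below the mark. Its other probe stayed below the background mark on all arrays. Among the gamma-secretase subunits, well above background on all arrays and not called, Psen2 fell by 0.42 (SE 0.12, adjusted p = 0.014) and Psenen fell by 0.45 (SE 0.11, adjusted p = 0.0064) in 11 of 11. Ncstn changed by 0.04 and Aph1a by -0.01 (adjusted p = 0.82 and 0.97). Aph1b changed by 0.26 (SE 0.11, adjusted p = 0.075), positive in 9 of 11 pairs. Its other probe, also well above background on all arrays, rose by 0.38 (SE 0.12, adjusted p = 0.028). Of the 8 cleavage genes on the array, 3 were higher and 2 lower by adjusted p, beside 45.0% of all genes either way.

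The O-glucosyltransferase Poglut1, which glycosylates the receptors' EGF repeats, was called higher by 1.33 (SE 0.21, adjusted p = 7e-04, 11 of 11 pairs), with 3 normal and 11 OSCC arrays above background. The O-fucosyltransferase Pofut1 rose by 0.72 (SE 0.15, adjusted p = 0.0036) in 11 of 11 pairs, under 2-fold. Dtx4, a ubiquitin ligase that acts on receptor trafficking, changed by 1.67 (SE 0.24, adjusted p = 0.00054) and was above background on 1 normal and 9 OSCC arrays. The ubiquitin ligase Itch was so on 0 normal and 5 OSCC arrays. It is counted among the 6 calls by the rule, but no change is given for it, because its OSCC mean did not exceed the lower limit of signal in normal tissue. The call of Itch was also lost with array median scaling, in the 9 pairs scanned on different days and without animals 21, 22 and 24.

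Of the nuclear partners none was called. Rbpj, the DNA-binding partner itself, changed by -0.0019 on the log2 scale (SE 0.12, adjusted p = 0.99) with its brighter probe. Its other probe was above background on 0 normal and 6 OSCC arrays and gives no change. By adjusted p, the coactivator Maml3 was higher by 0.61 (adjusted p = 0.027) and the acetyltransferase Ep300 fell by 0.35 (adjusted p = 0.019), both under 2-fold. Of the 10 other target genes none was called. Hes7 was higher by 0.56 (adjusted p = 0.012) and Ccnd1, cyclin D1, by 0.79 (adjusted p = 0.035). Hey2 was lower by adjusted p with a change of -0.98 (adjusted p = 0.021), with 2 normal and 4 OSCC arrays above background, and Hes5 and Hes3 stayed below the background mark on all arrays. Cdkn1a, the p21 cell cycle inhibitor, fell by 0.75 (SE 0.15, adjusted p = 0.0022) with its brighter probe and rose by 0.48 (SE 0.14, adjusted p = 0.02) with its other, both well above background on all arrays, so its direction is not settled here.

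**Figure D4:**
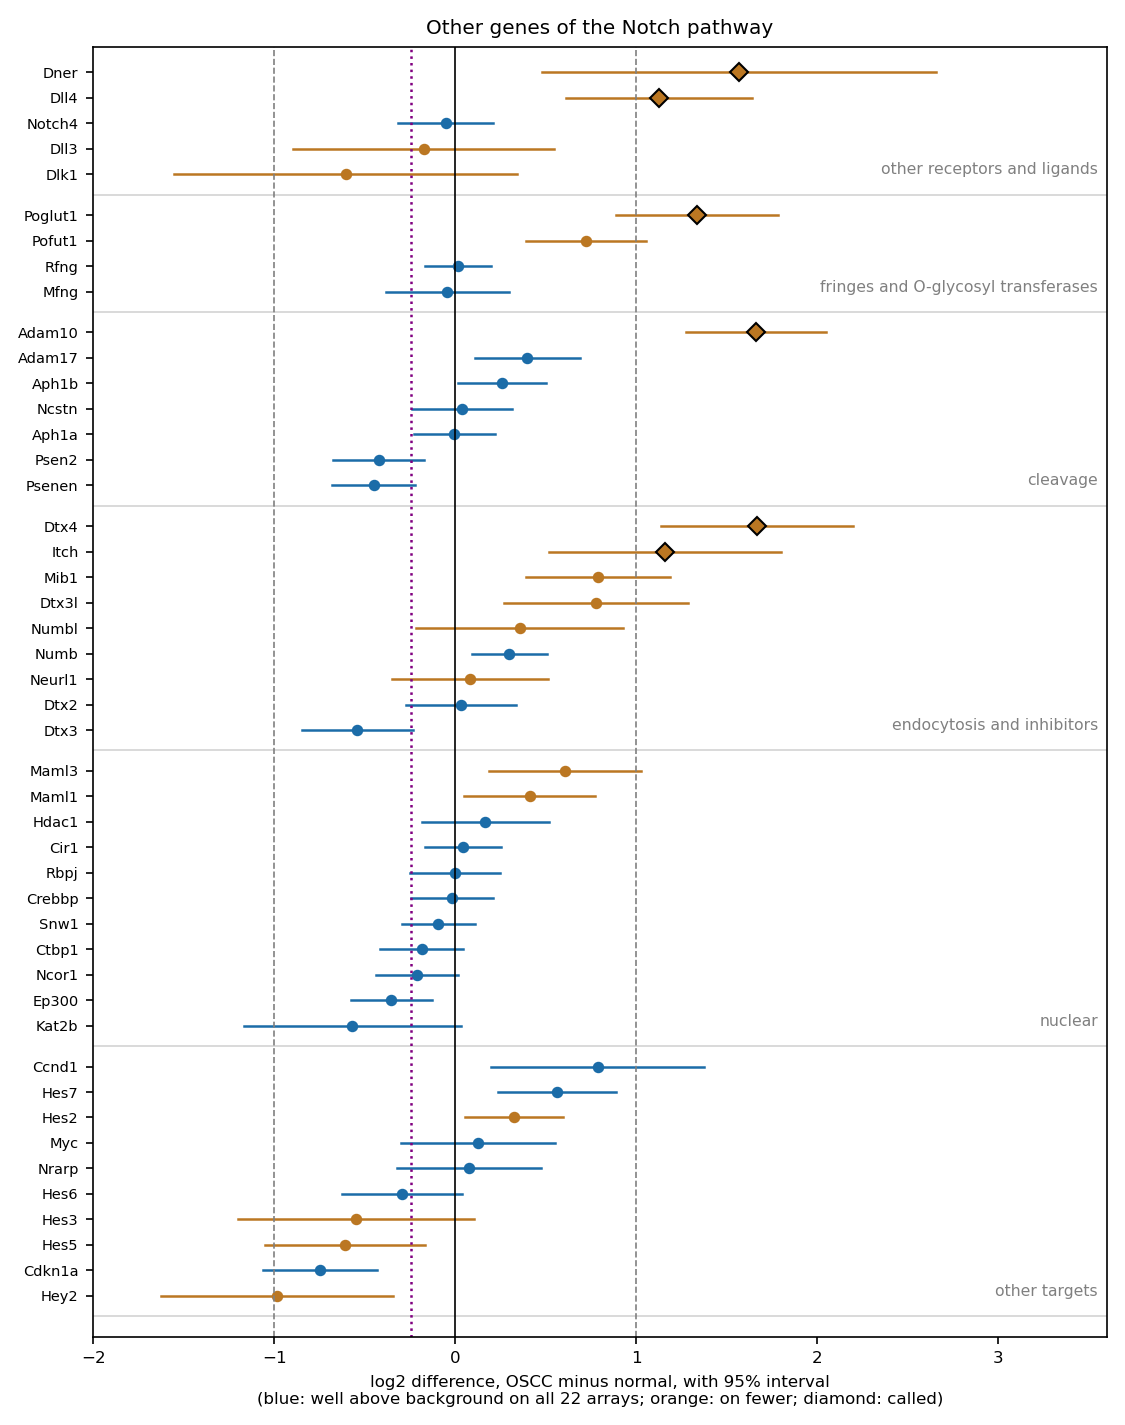
Log2 difference of OSCC minus normal, with 95% intervals, for 46 of the other pathway genes on the array by role. Blue genes were well above background on all 22 arrays and orange ones on fewer, diamonds were called, dashed lines mark 2-fold and the dotted line the median of all probes. All 6 diamonds are orange and to the right. Those of Adam10 and Itch were drawn from a normal signal below background on all arrays and do not give the size of their change.

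Markers of the cells in these pieces moved as well. Of the 6 leukocyte markers 6 were called higher, with a summed linear level (in multiples of the 75th percentile) of 1.31 to 3.22 in normal tissue and 3.05 to 16.1 in OSCC. Of 5 fibroblast markers 4 were called higher, with sums of 34.7 to 56.3 and 33.1 to 317, respectively. Of 6 skeletal muscle markers 4 were called lower, with sums of 885 to 1820 and 63.0 to 2320, and the OSCC sum was above the normal one in animals 21, 22 and 24. All 5 serous gland markers (5 of 5) were called higher, with sums of 0.139 to 2.60 and 2.05 to 4750. Of 7 mural cell markers 1, Myh11, was called lower, with sums of 13.6 to 22.6 and 11.5 to 25.7. Of 7 endothelial markers 0 were called, with 0 higher and 2 lower by adjusted p in limma (unadjusted, 0 and 3), and their sum was lower in 10 of 11 pairs (8.15 to 12.1 against 4.13 to 11.8).

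Of 5 basal epithelial markers on the array Itga6 was called higher and Krt15 lower, with sums of 219 to 344 in normal tissue and 25.3 to 482 in OSCC. The OSCC of animal 24, which had the lowest differences of Notch1 and Jag2 and the second lowest of Jag1, was the one at 25.3, where its normal tissue was at 309. Of 6 suprabasal markers Krt10 was called higher, with sums of 182 to 849 and 245 to 727. In animals 21 and 22, the pairs with a Notch3 rise, this sum rose from 182 to 727 and from 209 to 674. In animals 4 and 16, with the lowest Notch3 differences, it fell from 799 to 295 and from 849 to 386. In animals 11 and 17 it rose (282 to 386 and 514 to 515) while Notch3 fell. The mural sum fell in animals 21 and 22 and rose in animals 4, 13, 16, 24 and 25. In animals 9, 11, 17 and 26 it fell, as Notch3 did. These relations were not tested. Of 4 proliferation markers 0 were called by limma, and 0 had an unadjusted p below 0.05. No defining marker of any of these lists was below background on all arrays. The part of cell composition in the changes of Notch2, Notch3, Jag2 and Dll1 was not tested.

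The genes most like each member were sought among 9544 other genes well above background on all arrays, by the Pearson correlation of the OSCC minus normal difference over the 11 pairs. They are a description only, since each is the highest of many and the pairs share arrays and scaling. Jag2 was most like B4galnt1 and Col17a1, the latter a hemidesmosome collagen of basal keratinocytes (r = 0.96 and 0.95). Jag1 was most like Ndel1 and Cyp26b1, a retinoic acid hydroxylase (0.98 and 0.97). Notch3 was most like Pik3r5 and Krt13, a keratin of suprabasal mucosa (0.95 and 0.94), and Notch1 most like Arhgdia and Paf1 (0.95 and 0.94). Notch2 was most like Sh3bgrl and Rps6ka3 (0.88 for both). Dll1 was most like Sfrs11 and Sfi1 (0.94 and 0.92), and Lfng like Sphk2 and Ptk2b (0.95 and 0.92). Hey1 was most like Smtn, smoothelin of smooth muscle, and Alas1 (0.92 and 0.90), and Heyl like Hnrnpa2b1 and D2hgdh (0.98 and 0.89). The Hes1 signal, which is no level, was most like those of Tpt1 and Vps18 (0.93 for both).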

How the data were processed

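RNA of 22 tissues was labeled in 1 color and hybridized to Agilent rat arrays. The authors extracted the arrays with Agilent Feature Extraction (per the labels, no version given). The deposited processed intensity has a fitted spatial trend surface subtracted on 100% of spots and is not scaled between arrays. The deposited series table holds the same signal divided by the array's 75th percentile, floored at 0.01, and was used as an alternative.

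Control spots and 9196 spots marked as outliers (0.975%) were left out, log2 intensities of a probe's spots were averaged, and each array's 75th percentile was subtracted. Changes were tested in R 4.3.3 by limma (3.58.1), in a model of tissue that held the rat as a block, since both tissues came from 1 animal. Deviations within rats had correlations of -0.21 to 0.24 (median -0.02). Other tests used Python 3.11.15, NumPy 2.4.6 and SciPy 1.17.1, with 100000 permutations for correlations. The fit was tested on simulated data. On 30299 simulated probes, 75 of 100 changed by 1.5 log2 units were called and 100 of 100 changed by 3, with 2 false calls. The number of arrays limits the precision.

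"Well above background" is the scanner software's mark. A gene so marked on no array of 1 tissue has its fold given as a lower limit against the lowest signal so marked on each array. Every member was named, with each called gene of the pathway list and, for each member, the 2 genes most correlated with it. Uncalled list genes were named where a result needed them, and 2 list genes are counted but not reported here by name. The members, lists and tests were chosen with earlier results of these data known. Alternatives were other scalings, normexp (with a constant added to every signal), the authors' values, a filter on dim probes, the fit without pairing, slide, scan day, t-tests and left-out pairs.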

Additional observations from a re-analysis of the deposited data

How the results depend on the processing

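All settings were planned. The number of probes called was 4201 in the analysis as reported and moved by more than 1.5 times with normexp (1701), scan day as a term (3) and without animals 21, 22 and 24 (6924). With single pairs left out it ran from 3649 to 4799. Members called higher (1, Notch2) became 0 with normexp, with scan day as a term and with only probes well above background on at least 11 arrays, where Notch2 is not in the fit. Members called lower (0) became 1 with quantile normalization, in the 9 pairs scanned on different days and without animals 21, 22 and 24, and 2 with array median scaling (Notch3 and Dll1). They ran from 0 to 1 with single pairs left out. The pathway list's 6 higher calls became 0 with normexp and with scan day as a term and 3 with the filter on dim probes, and its 0 lower calls became 1 with quantile normalization, array median scaling, the authors' values and slide as a random block (Hey2 in each), and 3 without animals 21, 22 and 24. With single pairs left out the list had 5 to 7 higher and 0 to 1 lower. Of the 9 differences between members, 6 passed as reported and 0 with normexp, and that of Notch1 and Notch3 passed without animals 21, 22 and 24 (1.26, adjusted exact p = 0.023, n = 8). Of the 18 relations, 0 passed as reported and 6 with normexp: those of Notch2 with the targets, at r = 0.97 to 0.98, and those of Jag1, at r = -0.79 to -0.75, 2 of the 6 with the Hes1 signal. Notch2 and the Hes1 signal, which is no level, had r = 0.98 with normexp and -0.30 as reported. Normexp here adds a constant to every signal before scaling, so these 6 are not read as relations of levels. The cause was not tested.

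Changes that turned sign were those of Notch1 without animals 21, 22 and 24 (0.052), Jag1 with array median scaling (-0.14) and with single pairs left out (-0.056 to 0.19), Lfng and Heyl with scan day as a term (-0.64 and -0.36), and Hes1 with quantile normalization (0.038), all at an adjusted p above 0.05. Those with scan day as a term rest on the pairs scanned within 1 day. With no replicate block, that is without pairing the tissues of a rat, 4227 probes were called, Notch2 changed by 1.23 (adjusted p = 0.0019), and no call of a member or list gene changed. Scaling moved the median of all probes from -0.24 to -0.03 with quantile normalization and -0.44 with array median scaling, and in the latter 32.8% of calls were higher, against 49.6%. Dim signal limits Notch2, Heyl, Lfng and Hes1.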
